A study of Caenorhabditis elegans with 6 samples.

Results

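A set of 10 genes of the meiotic pairing centre and checkpoint machinery of the nematode Caenorhabditis elegans were followed in whole-animal RNA of starved first-stage (L1) larvae. They are him-8, zim-1, zim-2, zim-3, chk-2, plk-2, sun-1, pch-2, zhp-3 and zhp-4, taken by name, and their records were found in the count tables by RefSeq transcript accession. Of the 10 genes, 9 had at least 1 record by this match, 14 records in all among 39875 named genes and 50832 records of the series, and 5 genes (chk-2, plk-2, sun-1, pch-2 and zhp-4) had enough reads to be tested. The mutant group held 3 libraries of spr-5; met-2 larvae, which carry spr-5(by101) on chromosome I and met-2(n4256) on chromosome III, and the other group held 3 libraries of the wild-type strain N2. SPR-5 is a histone H3 demethylase of the LSD1 family, MET-2 is a histone H3 lysine 9 methyltransferase, and the study asked which genes differ between these larvae. Larvae of both groups came from plates with HT115 bacteria at 20 °C and hatched overnight without food in buffer at 21 to 22 °C, and 1000 to 1500 of them went into an extraction.

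In meiosis each chromosome must find its homologue, and in this nematode one end of each chromosome, the pairing centre, leads the search. Zinc finger proteins bind the pairing centres: HIM-8 that of the X chromosome, ZIM-1 those of chromosomes II and III, ZIM-2 that of chromosome V and ZIM-3 those of chromosomes I and IV. The kinase CHK-2 starts this phase of meiosis and marks the pairing centre proteins, which then recruit the Polo-like kinase PLK-2, and SUN-1 in the inner nuclear membrane joins the chromosome ends, through ZYG-12 in the outer membrane, to dynein in the cytoplasm. PCH-2 is an AAA+ ATPase that remodels HORMA domain proteins of the chromosome axis and acts in the checkpoint for synapsis, and ZHP-3 and ZHP-4 are RING finger proteins at future crossovers. A newly hatched larva has a germline of a pair of primordial germ cells, which have not entered meiosis, so the stage sampled normally holds no meiotic nuclei. Whether some of the RNA came from older animals was not tested, and levels of adult yolk genes by library are given below.

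The libraries held 17062557 to 25368364 counts, and a principal component analysis of log2 CPM (CPM being the count scaled to library size) set the 2 groups on opposite sides of its first axis. Among the genes that carry the mutations, spr-5 stood at 123 ± 6.58 CPM in spr-5; met-2 larvae and 53.8 ± 10.7 CPM in N2 larvae, and met-2 at 82.7 ± 4.04 CPM and 111 ± 9.36 CPM in the same order of groups (SD, n = 3 each). Reads counted over whole transcripts do not show which part an allele removes, so these levels check no label. Apart from those of the epidermis, summed markers of the larval body were abundant in all libraries. The sums were 9387 to 11409 CPM in spr-5; met-2 and 8168 to 15097 CPM in N2 for 5 muscle genes. They were at 8867 to 11848 CPM in spr-5; met-2 and 11603 to 17476 CPM in N2 for 6 pharynx genes, and at 1202 to 1479 CPM and 1294 to 1888 CPM in the same order for 6 neuron genes. For 6 intestine genes the sums were 1357 to 1431 CPM in spr-5; met-2 and 1141 to 1550 CPM in N2. For 6 epidermis genes, with elt-1 and elt-3 at 0, they were 13.9 to 138 CPM and 5.99 to 93.3 CPM in the same order. The genes unc-54, egl-21 and act-5 held most of the muscle, neuron and intestine sums. Among these body markers the pharynx genes tnc-2 and tnt-4 fell (2 of 5 tested), the intestine genes elt-2 and ifb-2 rose and ges-1 fell (of 6 tested), and none of the tested muscle, neuron and epidermis genes was called. In the same edgeR test (adjusted p below 0.05) 14.3% of all tested records rose and 11.7% fell. The calls of tnt-4 and ifb-2 were lost under 7 and 8 alternatives, among them leaving out any 1 library (edgeR adjusted p 0.0617 to 0.153), except N2 replicate 3 for tnt-4. With the replicate number as a block, the epidermis gene dpy-7 rose (edgeR adjusted p = 0.0337) and the neuron gene rab-3 fell (0.0253). The part of the body markers in the results that follow was not tested. The labels do not say if the replicates were separate cultures. A p-value therefore reflects the spread among 3 libraries a group, part of which may be technical.

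Records for the zinc finger genes of the pairing centres held almost no counts in either group. The 1 record matched to him-8 and the 4 records matched to zim-1 had 0 counts in all 6 libraries. Of the 2 records of zim-3, one had 0 counts throughout, and the other had 1, 0 and 1 counts in spr-5; met-2 replicates 1, 2 and 3 and 0, 1 and 2 counts in the N2 replicates. The RefSeq accession of zim-2 matched no record, and the gene was not analysed here. Both records of zhp-3, the gene for the crossover RING finger protein that partners ZHP-4, also had 0 counts throughout. Summed over a group, a floor of 3 counts corresponds to 0.0457 CPM in spr-5; met-2 and 0.0514 CPM in N2, a limit that accounts for counting error alone, as the reads carry no molecular identifiers. No fold change is given for these genes.

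The genes without a usable record differ from the tested ones in their transcripts. All 5 tested genes have 1 transcript in the Ensembl annotation of assembly WBcel235, and the 5 genes without a usable record have 2 to 4. Of the exonic bases of zhp-3, 1.01% lie in only 1 of its transcripts, and the shares are 3.71% for zim-1 and 10.4% for zim-3. For him-8 the share is 90.4%, and its matched record had 0 counts. Another RefSeq record of him-8 was not among the counted records, and which transcript holds these bases was not examined. Over all 14547 protein-coding genes with 1 named record in the tables, 12.5% had 3 or fewer counts in the 6 libraries together, against 28.5% of the 3565 genes with several records. Of the 6 genes in the lists of related genes that were listed at 0 in every library, 4 (plk-1, brc-1, chk-1 and atl-1) have 1 named record, and dli-1 and him-3 have several. The mitotic kinase gene plk-1, which dividing cells need, has 1 record and 1 RefSeq transcript. By contrast brc-1 has 3 RefSeq transcripts, and chk-1 and atl-1 have 2 each, with 1 named record for each gene. The tables also hold 4758 records that no accession named, with 12.8% to 13.4% of the counts of a library, and other records of these genes may be among them. The cause of the zeros was not tested, and the genes are described only as listed at 0.

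**Figure D1:**
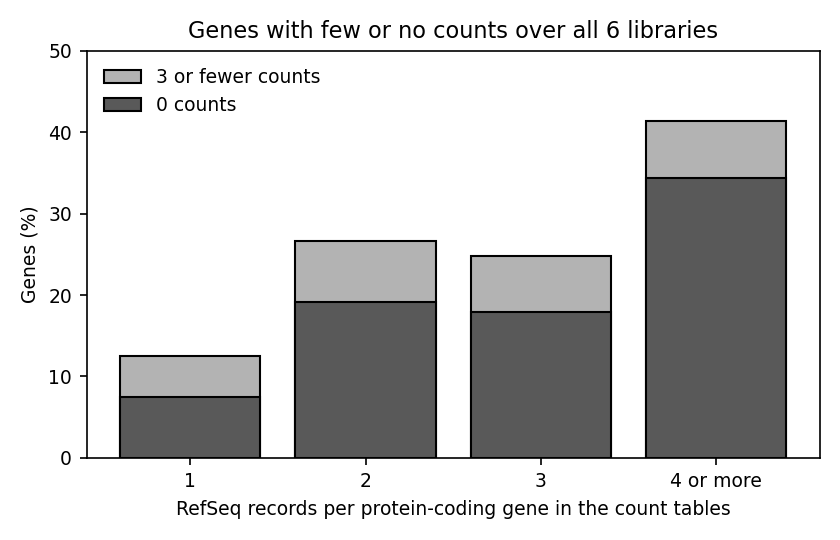
Share of protein-coding genes (vertical axis, %) with 0 counts (dark) or with 3 or fewer counts (whole bar) over the 6 libraries, by the number of named RefSeq records of the gene in the count tables (horizontal axis). The whole bar stands at 12.5% for genes with 1 record, 26.6% with 2, 24.8% with 3 and 41.3% with 4 or more.

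The 4 pairing centre zinc finger genes lie side by side on chromosome IV in the order zim-1, zim-2, zim-3 and him-8, with no other protein-coding gene between them in the RefSeq gene table of assembly WBcel235. In the Ensembl annotation zim-1 and zim-2 share 223 exonic bases on the same strand, 11.02% of zim-1 and 9.46% of zim-2. The other genes are scattered, with plk-2 and zhp-3 on chromosome I, pch-2 on chromosome II and chk-2, sun-1 and zhp-4 on chromosome V. The authors' build is named as ce10 and no genome of it was used here, so no coordinates are given.

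All 5 genes that could be tested differed between the groups. The genes chk-2, plk-2, sun-1 and pch-2 were higher in spr-5; met-2 larvae, by 1.61 to 2.90 times in mean CPM, and zhp-4 was lower, at 0.331 times the N2 mean. Of the 14557 records tested across the series, 25.9% passed the same threshold (edgeR quasi-likelihood test, adjusted p below 0.05), 14.3% higher and 11.7% lower in spr-5; met-2. The groups did not overlap for any of the 5 genes, which held for 43.6% of all tested records. The median log2 fold change of the 5 genes was 0.84, against -0.01 over all tested records. Since the genes were chosen with results of these data known, and 5 of the 10 have no usable value, the counts describe these genes and do not stand for the pathway. In RNA of whole larvae a change in the number of cells that express a gene and a change in RNA per cell cannot be told apart.

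The kinase genes chk-2 and plk-2 were both higher in the mutant larvae. The gene chk-2, for the CHK2-family kinase that licenses pairing and break formation, had 6.10, 3.14 and 4.16 CPM in spr-5; met-2 replicates 1, 2 and 3 and 2.09, 1.54 and 1.0015 CPM in the N2 replicates. The lowest mutant library stood above the highest N2 library, but the spread was wide, with a coefficient of variation of 33.6% in spr-5; met-2 and 35.3% in N2. These levels rest on 118, 57 and 117 counts in the mutant libraries and 38, 31 and 20 counts in N2. The log2 fold change was 1.54 ± 0.37 (SE, edgeR adjusted p = 0.0181), the largest rise of the 5 genes. The call was lost by a narrow margin when spr-5; met-2 replicate 1 (edgeR adjusted p = 0.0552), its replicate 3 (0.0558), N2 replicate 2 (0.0602) or N2 replicate 3 (0.0526) was left out, with log2 fold changes of 1.25, 1.59, 1.53 and 1.28.

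The Polo-like kinase gene plk-2 had 7.50, 9.82 and 9.54 CPM in the mutant libraries and 5.83, 5.35 and 5.51 CPM in N2. The N2 libraries lay close together, with a coefficient of variation of 4.36%, and every mutant library was above them. The log2 fold change was 0.69 ± 0.19 (SE, edgeR adjusted p = 0.0332), the smallest of the 5 in size. Leaving out spr-5; met-2 replicate 2 (edgeR adjusted p = 0.110), its replicate 3 (0.136), N2 replicate 2 (0.0982) or N2 replicate 3 (0.0763) ended this call, and so did testing without a count filter (0.0526). The fold change itself moved little, lying between 0.62 and 0.91 on the log2 scale under all alternatives.

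At the nuclear envelope, sun-1 was higher as well. It had 6.05, 6.84 and 6.26 CPM in the mutant libraries and 3.85, 3.81 and 3.005 CPM in N2. The 3 mutant libraries were alike, with a coefficient of variation of 6.42%, and all stood above N2. The log2 fold change was 0.84 ± 0.21 (SE, edgeR adjusted p = 0.0200). The call was lost without spr-5; met-2 replicate 2 (edgeR adjusted p = 0.0694), without its replicate 3 (0.0795), without N2 replicate 2 (0.0508) and without N2 replicate 3 (0.0547). The gene of its outer membrane partner, zyg-12, stood at 0.614 ± 0.151 CPM in spr-5; met-2 and 0.705 ± 0.0962 CPM in N2 (SD, n = 3 each), and its log2 fold change was -0.19 ± 0.36 (SE; adjusted p = 0.745 in edgeR). The 95% interval was -0.88 to 0.51 for zyg-12 and 0.44 to 1.25 for sun-1, so the intervals overlap. The difference between the 2 genes was not tested. The gene zyg-12 has 3 named records, with 82 counts in all over the 6 libraries. How reads shared by its records were counted is not known, so its level may be too low.

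The checkpoint ATPase gene pch-2 was the most abundant of the 5 genes and the one whose rise was lost under no alternative tried. It had 16.4, 20.5 and 17.5 CPM in the mutant libraries and 8.30, 8.52 and 9.76 CPM in N2. Mutant libraries held about double the N2 level, with a ratio of means of 2.05 and a clear gap between the groups. The log2 fold change was 1.03 ± 0.17 (SE, edgeR adjusted p = 0.00349), and the adjusted p lay between 1.24e-06 and 0.0201 over the alternatives. Of its exonic bases 61, or 4.43%, overlap the cell division gene emb-27 on the opposite strand, and the strand setting of the counts is not given in the sources used here. That gene stood at 35.1 ± 1.17 CPM in spr-5; met-2 and 26.1 ± 2.63 CPM in N2 (SD, n = 3 each). The part of shared reads in the pch-2 result was not tested.

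The crossover gene zhp-4 went the other way. It had 1.40, 1.93 and 1.46 CPM in spr-5; met-2 replicates 1, 2 and 3, against 3.30, 6.34 and 4.81 CPM in the N2 replicates. All mutant libraries lay below all N2 libraries, and the N2 libraries were spread, with a coefficient of variation of 31.6%. The underlying counts were 27, 35 and 41 in the mutant and 60, 128 and 96 in N2. The log2 fold change was -1.60 ± 0.31 (SE, edgeR adjusted p = 0.00816), and the call held under every alternative tried, with log2 fold changes from -1.83 to -1.35 and adjusted p values from 0.000114 to 0.0444. Of all tested records, 2.42% had a lower log2 fold change. In the Ensembl annotation, 440 of the 1657 exonic bases of zhp-4 (26.6%) are shared with pro-3, the adjacent gene on the same strand, whose record was not matched and which was not analysed here. Whether reads from pro-3 contribute to this fall was not tested.

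**Figure D2:**
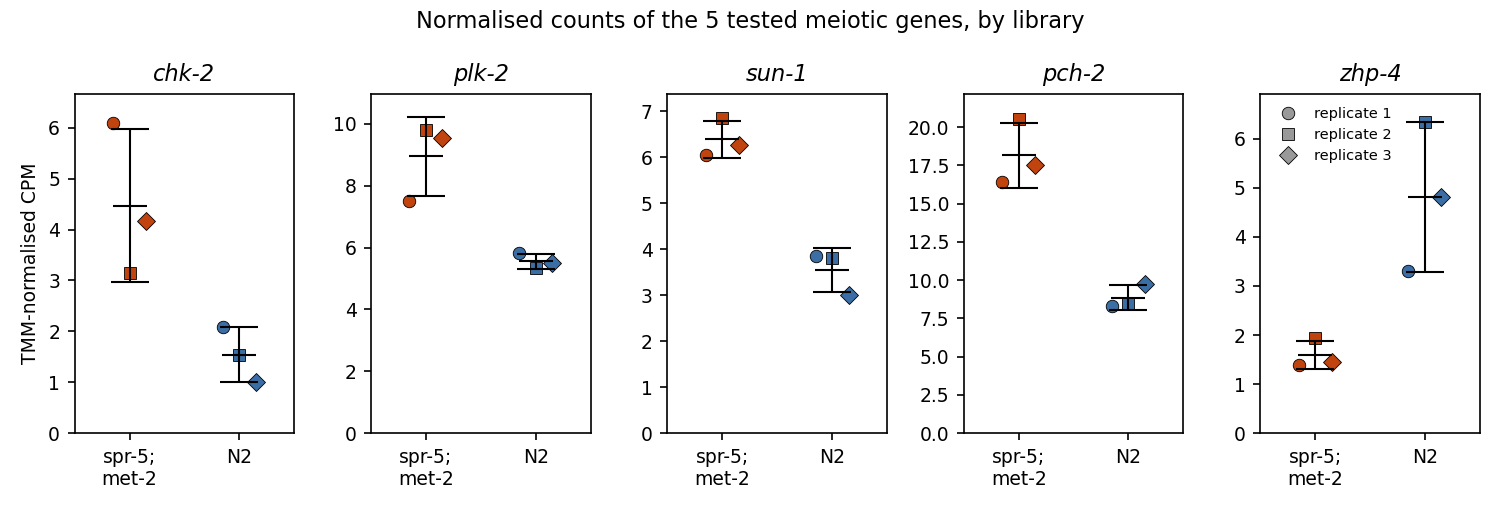
TMM-normalised CPM (vertical axis, from 0, a scale for each gene) of chk-2, plk-2, sun-1, pch-2 and zhp-4 in spr-5; met-2 libraries (left, orange) and N2 libraries (right, blue). Symbols are single libraries, and bars give the mean ± SD of 3; the groups do not overlap for any gene, and zhp-4 is the one that is lower in spr-5; met-2, at 1.595 against 4.81 CPM on average.

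Per length of exon, the order of the genes differed between the groups. In spr-5; met-2 the means were 13.2 CPM per kilobase for pch-2, 4.11 for plk-2, 3.85 for sun-1, 1.77 for chk-2 and 0.963 for zhp-4. There plk-2 and sun-1 overlapped between libraries, and the other neighbours in this order did not. In N2 the means were 6.43 CPM per kilobase for pch-2, 2.91 for zhp-4, 2.55 for plk-2, 2.14 for sun-1 and 0.609 for chk-2. The N2 libraries of zhp-4 ranged from 1.99 to 3.83 CPM per kilobase and overlapped those of both plk-2 and sun-1. Thus pch-2 had the highest level in both groups, while the place of zhp-4 was last in the mutant and not distinguishable from that of plk-2 and sun-1 in N2. The lengths are from the Ensembl annotation and may differ from those of the counted records. For zhp-4 they include the 440 bases shared with pro-3. The effect of these lengths on the order was not tested.

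The authors' deposited table gave the same directions for the 5 genes. In the authors' deposited table the log2 fold changes were 1.45 for chk-2, 0.68 for plk-2, 0.83 for sun-1, 1.03 for pch-2 and -1.51 for zhp-4. Adjusted p values in the authors' deposited table were 0.00107 for chk-2, 0.0146 for plk-2, 0.00578 for sun-1, 3.38e-06 for pch-2 and 0.000143 for zhp-4. They come from the same 6 libraries and add no replication.

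**Figure D3:**
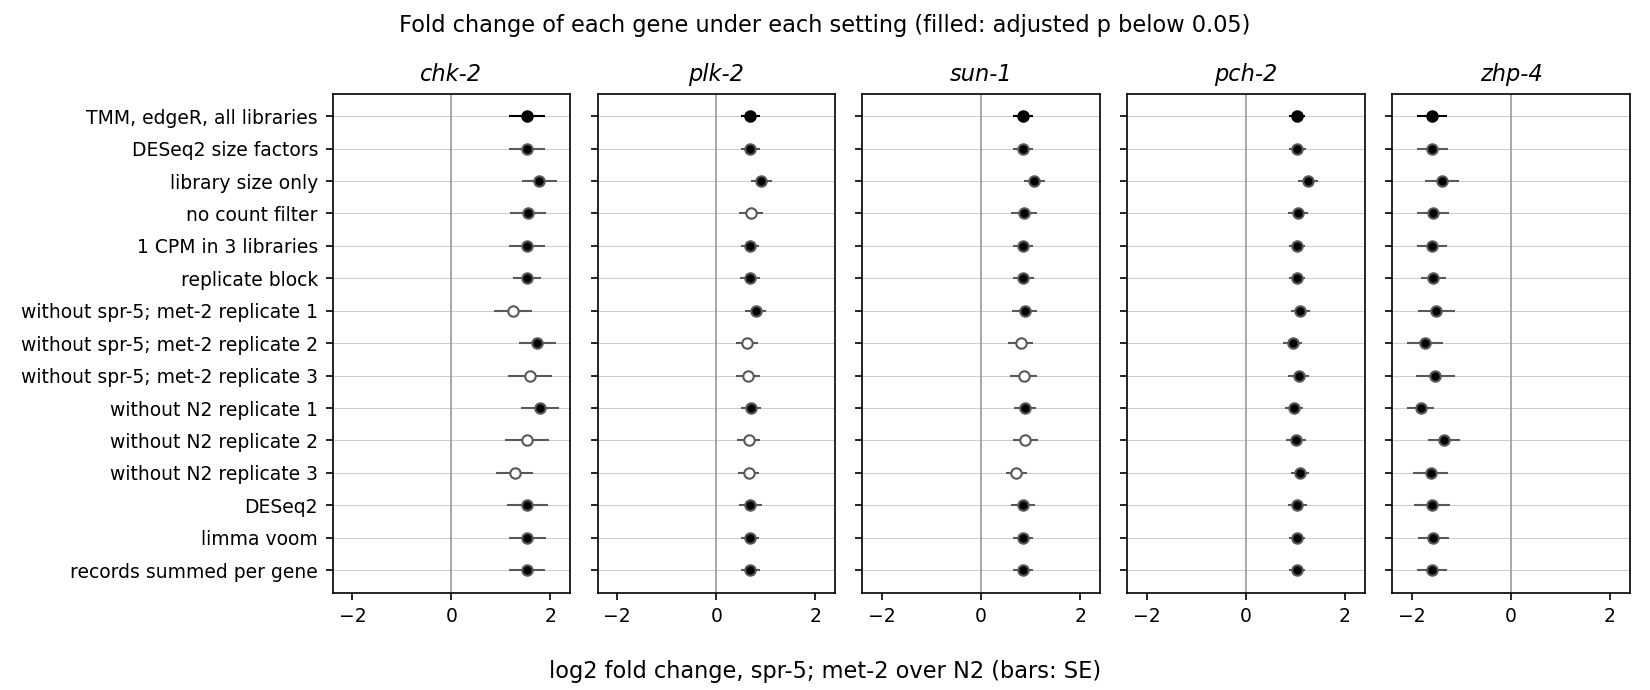
Log2 fold change of spr-5; met-2 over N2 (horizontal axis, bars are SE) for each of the 5 tested genes under each setting (rows), filled where the adjusted p is below 0.05. No value changes sign; chk-2, plk-2 and sun-1 have open symbols where single libraries are left out, and pch-2 and zhp-4 are filled throughout.

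Among the genes that work beside them in pairing, 1 was called. Of 20 listed partners in nuclear envelope attachment, dynein movement and pairing control, 18 had a record and 15 were tested, of which 1 rose and 0 fell, beside 14.3% rising and 25.9% called over all tested records, and their median log2 fold change was 0.20. The riser was plk-3, a gene for another Polo-like kinase, at 34.9, 42.7 and 39.1 CPM in the mutant libraries and 8.02, 8.92 and 12.7 CPM in those of N2, and its log2 fold change was 1.98 ± 0.20 (SE; adjusted p = 0.000367 in edgeR). Next in order of p were cra-1, a synapsis gene, at 0.39 ± 0.12 (edgeR adjusted p = 0.0541), gras-1 at 0.67 ± 0.22 (0.0613), hal-3 at 0.59 ± 0.20 (0.0652) and the dynein regulator gene nud-2 at 0.41 ± 0.17 (0.111; log2 fold changes, SE). With the replicate number as a block 4 rose, adding cra-1, gras-1 and the dynein heavy chain gene dhc-1, and with DESeq2 4 rose. With library size as the only scaling 7 rose, and there the median over all records shifted up by 0.22 on the log2 scale.

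Genes of the chromosome axis and synaptonemal complex, which holds paired homologues together, differed more. All 12 tested of 13 listed rose (10 to 12 under the alternatives), with a median log2 fold change of 2.34, and him-3 was listed at 0. Over all tested records 14.3% rose. The HORMA domain gene htp-3, which builds the axis, stood at 73.1, 78.2 and 67.8 CPM in the mutant libraries and 9.40, 7.53 and 8.56 CPM in those of N2, and its log2 fold change was 3.10 ± 0.14 (SE; adjusted p = 1.21e-05 in edgeR). The kleisin gene coh-3, for a meiotic cohesin subunit, rose by 2.19 ± 0.16 and the HORMA domain gene htp-2 by 2.49 ± 0.19 on the log2 scale, beside htp-1 at 3.74 ± 0.19 and syp-1 at 3.37 ± 0.16. HORMA domain proteins are what PCH-2 acts on, and pch-2 stood at 1.03.

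Genes of break formation and crossing over also rose in part. Of 24 listed, 22 had a record and 18 were tested, of which 11 rose and 0 fell, and their median log2 fold change was 0.77. Over all tested records 14.3% rose and 11.7% fell. The gene rmh-1, for a scaffold of the BLM helicase complex, averaged 22.7 ± 0.361 CPM in spr-5; met-2 and 4.79 ± 0.601 CPM in N2 (SD, n = 3 each), and its log2 fold change was 2.25 ± 0.17 (SE; adjusted p = 7.45e-05 in edgeR). The BLM helicase gene him-6 rose by 0.78 ± 0.13, the break formation gene dsb-1 by 2.14 ± 0.40 and rad-54.L, for a SWI/SNF-family translocase that assists the RAD-51 recombinase, by 0.93 ± 0.19. The gene rec-1 was at 0.76 ± 0.17 (SE, edgeR adjusted p = 0.0135), a call lost when replicate 2 (0.0562) or 3 (0.0693) of spr-5; met-2 was left out. Leaving out replicate 2 or 3 of spr-5; met-2 or replicate 2 of N2 left 5, 6 and 7 rising. With the replicate block 1 fell, him-5, a gene for X chromosome breaks, at -0.62 ± 0.16 (SE, edgeR adjusted p = 0.0173), against -0.67 ± 0.27 (0.105) without the block. It also fell when N2 replicate 1 was left out, at -0.94 ± 0.18 (SE, edgeR adjusted p = 0.0110). The paralogue zhp-1 stood at 2.38 ± 0.566 CPM in spr-5; met-2 and 1.77 ± 0.392 CPM in N2 (SD, n = 3 each). Its log2 fold change was 0.43 ± 0.31 (SE; adjusted p = 0.343 in edgeR), and it was named after its value was seen as the other tested gene of the zhp family.

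Of 19 listed genes of the DNA damage and spindle checkpoints and of germ cell death, 18 had a record and 13 were tested, of which 4 rose and 0 fell, and their median log2 fold change was 0.50. Over all tested records 14.3% rose and 11.7% fell. The p53 homologue gene cep-1 stood at 15.6, 17.9 and 16.4 CPM in the mutant libraries and 2.80, 3.76 and 3.61 CPM in those of N2, and its log2 fold change was 2.29 ± 0.19 (SE; adjusted p = 0.000138 in edgeR). The caspase gene ced-3 rose by 1.81 ± 0.26 and the spindle checkpoint kinase gene bub-1 by 0.76 ± 0.12. The cell death gene egl-1 was at 1.18 ± 0.33 (SE, edgeR adjusted p = 0.0335), a call lost when any library other than spr-5; met-2 replicate 1 was left out (0.0622 to 0.167). The spindle checkpoint gene mdf-1 was at 0.39 ± 0.13 (SE, edgeR adjusted p = 0.0626), and cmt-1, which works with PCH-2, stood at 8.98 ± 0.722 CPM in spr-5; met-2 and 7.24 ± 1.27 CPM in N2 (SD, n = 3 each), named after its value was seen. The checkpoint kinase genes chk-1 and atl-1 were listed at 0. With the replicate block 6 rose, adding mdf-1 and the damage sensor gene hus-1. Across the 4 lists of related genes 28 of 58 tested genes rose, beside 14.3% of all tested records. At an unadjusted edgeR p below 0.05 only pph-4.1, a phosphatase gene of the pairing list, and him-5 were lower, while DESeq2 and limma voom called 0 falling. Of the tested genes, 1 in the axis list, 2 in the break list and 1 in the checkpoint list had an N2 library below the level of the count filter, and such genes had little room to be called lower.

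**Figure D4:**
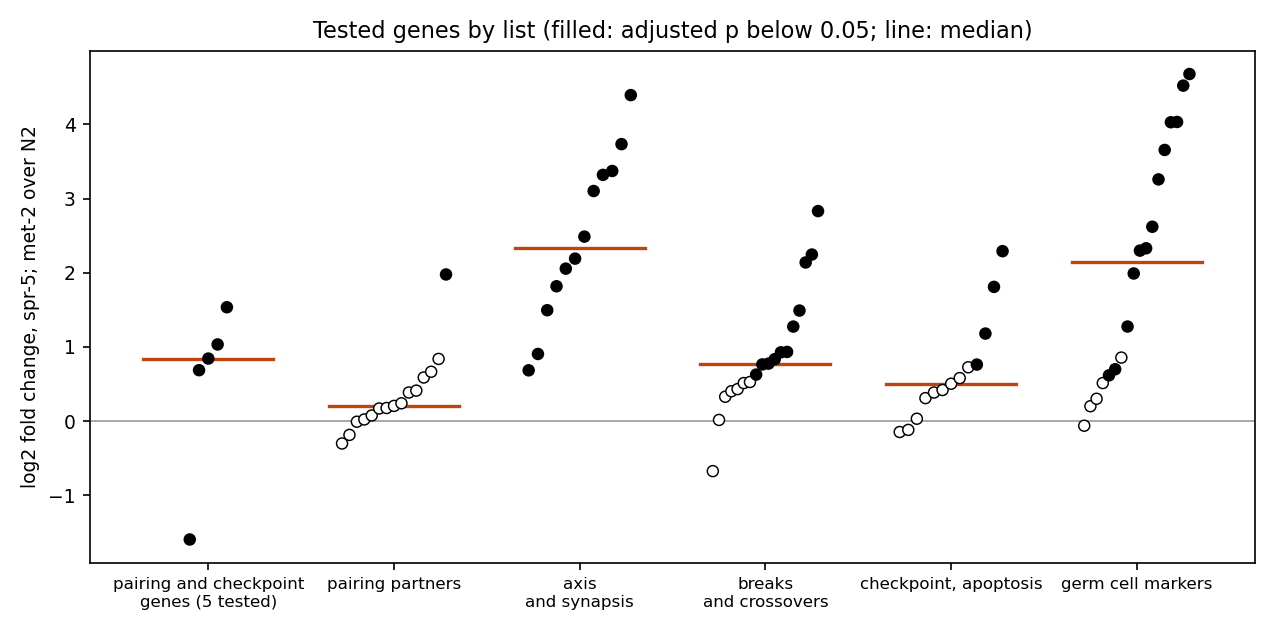
Log2 fold change of spr-5; met-2 over N2 (vertical axis) for each tested gene, in the pairing and checkpoint genes and in lists of related genes and germ cell markers (horizontal axis). Points are genes, filled where the adjusted p is below 0.05, and lines are medians, at 0.84 for the 5 pairing and checkpoint genes, 0.20 for partners, 2.34 for axis and synapsis, 0.77 for breaks and crossovers, 0.50 for checkpoints and cell death, and 2.14 for germ cell markers.

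Most of the tested germ cell markers were higher in spr-5; met-2. Of 20 listed, 18 were tested, of which 13 rose and 0 fell (11 to 16 rising under the alternatives), with a median log2 fold change of 2.14, and pgl-1 was listed at 0. Beside this list and the oocyte and embryo list below, 14.3% of all tested records rose and 11.7% fell. Their summed level was 1771 to 1918 CPM in spr-5; met-2 and 340 to 441 CPM in N2. The most abundant were the Piwi gene prg-1, the helicase gene glh-1 and the RNA granule gene car-1. The level of prg-1 was 636 ± 11.7 CPM in spr-5; met-2 and 27.6 ± 2.79 CPM in N2 (SD, n = 3 each). It was 566 ± 31.2 and 44.9 ± 13.2 CPM for glh-1 and 167 ± 14.5 and 135 ± 20.8 CPM for car-1, in the same order (SD, n = 3 each). The groups overlapped for car-1, which was not called (edgeR adjusted p = 0.167). The other tested germ cell markers that were not called were glh-4, nos-1, mes-2 and xnd-1. Oocyte and embryo markers, of which 14 had a record, summed to 442 to 507 CPM in spr-5; met-2 and 57.0 to 106.8 CPM in N2, and cey-2, cbd-1 and mex-5 held most of the mutant sum. Of 12 tested, 6 rose and 0 fell, while pie-1 stood at 2.94 ± 0.926 CPM in spr-5; met-2 and 4.06 ± 0.136 CPM in N2 and mex-6 at 1.12 ± 0.479 and 1.73 ± 0.517 CPM in the same order (SD, n = 3 each). The eggshell genes perm-2 and perm-4 were below the count filter, with highest values of 1.49 and 1.54 CPM in spr-5; met-2 (replicate 2) and 8.51 and 9.86 CPM in N2 (replicate 3). Of the tested genes, 3 of 18 germ cell markers and 1 of 12 oocyte and embryo markers had an N2 library below the level of the count filter. Sperm markers summed to 4.70 to 6.37 CPM and 4.06 to 5.003 CPM over 15 genes, led by spe-9, spe-11 and spe-41, with ssp-9, ssp-16 and msp-142 at 0. Yolk genes of the adult, led by vit-5, vit-2 and vit-4 with vit-6 at 0, summed to 0.517, 14.7 and 1.39 CPM in spr-5; met-2 replicates 1, 2 and 3 and 0.385, 1.34 and 72.5 CPM in the N2 replicates. The part of these marker levels in the results for the 5 genes was not tested.

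Set against the summed germ cell markers of the same library, the values depended on which markers were summed. The sum itself was 4.81 times higher in spr-5; met-2 on average, so a gene that rose by less has a lower ratio there. Per 1000 CPM of markers, pch-2 held 9.81 ± 0.934 CPM in spr-5; met-2 and 23.5 ± 4.96 CPM in N2, and plk-2 held 4.84 ± 0.718 and 14.6 ± 1.498 CPM in the same order (SD, n = 3 each). The ratio was 3.45 ± 0.174 in spr-5; met-2 and 9.27 ± 0.872 in N2 for sun-1, and 0.860 ± 0.132 and 12.9 ± 4.92 for zhp-4. Groups did not overlap for these 4 genes. For chk-2 they did, with 3.28, 1.64 and 2.35 CPM per 1000 in the mutant libraries and 4.73, 4.14 and 2.94 in N2. Without prg-1 and glh-1, an alternative chosen after seeing the data, the markers summed to 614 to 682 CPM in spr-5; met-2 and 275 to 351 CPM in N2. Per 1000 CPM of these, pch-2 then held 28.02 ± 2.35 CPM in spr-5; met-2 and 28.9 ± 6.06 CPM in N2, and chk-2 6.95 ± 2.42 and 4.85 ± 1.16 CPM in the same order, both with overlapping groups (SD, n = 3 each). The ratio was 13.8 ± 2.02 in spr-5; met-2 and 18.0 ± 1.82 in N2 for plk-2, 9.87 ± 0.441 and 11.4 ± 0.792 for sun-1, and 2.46 ± 0.341 and 15.8 ± 5.74 for zhp-4, whose groups did not overlap. This smaller sum was itself 2.08 times higher in spr-5; met-2. Because both sums rose, groups that do not overlap in a ratio are no separate evidence of a change. The share of all tested records without overlap in such a ratio was not computed. These ratios are descriptions without a test.

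Among 12456 other tested genes with a name, the one nearest in pattern was sought for each of the 5 by the root mean square difference of log2 CPM, centred over the 6 libraries. For sun-1 it was gadr-6 (difference 0.0574), for plk-2 F09E5.7 (0.0692) and for pch-2 Y52E8A.2 (0.0700). For zhp-4 it was C02F4.11 (0.122) and for chk-2 C09E7.8 (0.163). Within a difference of 0.1 there were 31 genes for sun-1, 20 for plk-2, 8 for pch-2 and none for zhp-4 or chk-2. The gene C02F4.11, nearest to zhp-4, had 0.465, 0.827 and 0.569 CPM in the mutant libraries and 1.21, 2.43 and 2.20 CPM in N2, with the lowest value of each group in replicate 1 as for zhp-4. With 6 libraries in 2 groups, such likeness rests mainly on the difference between the groups.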

How the data were processed

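RNA-seq counts of 3 spr-5; met-2 and 3 N2 libraries, grouped and numbered by their titles, were analysed. The deposited tables give raw counts, whole numbers for each RefSeq transcript record. HISAT2 alignment is named per the file headers, which also carry the name L4440. FastQC, Trimmomatic, featureCounts, DESeq2 2.11.40.2 and build ce10 are named per the submitters' processing notes, without role or order. The strand setting and the handling of reads shared by several records are not stated in the labels or headers. A table of the authors' own comparison holds, per the file headers, a base mean (a signal averaged over libraries) and a log2 fold change. It also holds the standard error of that fold change, a Wald statistic, which is a score, and p-values with and without adjustment, deposited by the authors.

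Records were named by accession from the RefSeq gene table of WBcel235 and named records held 86.6% to 87.2% of counts. Exonic lengths came from the Ensembl annotation of WBcel235. Records passing filterByExpr (minimum count 10, minimum total 15) were scaled by TMM and tested with edgeR 4.0.16 (R 4.3.3), a two-sided quasi-likelihood test with Benjamini-Hochberg adjustment over all 14557 records and a threshold of 0.05. CPM is TMM-normalised, and the SE is the fold change divided by the square root of F. The test was also run on simulated counts with the same dispersion for all records and no pairing of replicates. That run does not measure how the test performs on these libraries. Where a gene has several records, the most abundant tested one stands for it. Same-numbered libraries of the 2 groups deviated together from their group means over all tested records (correlations 0.456, 0.356 and 0.186 for numbers 1, 2 and 3), so the numbers were treated as pairing the libraries in an alternative with a replicate block.

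Alternatives were DESeq2's size factors, library size only, no count filter, 1 CPM in 3 libraries, DESeq2 1.42.0, limma voom (limma 3.58.1), the replicate block, each library left out, an adjusted p below 0.01 and records summed per gene. Besides the 10 genes, the text names up to 5 tested genes per related list with the smallest adjusted p, the most abundant markers and the gene nearest in pattern, and others where stated. The 10 genes and the lists were chosen with earlier results of these data known.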

Additional observations from a re-analysis of the deposited data

How the results depend on the processing

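Of the 5 tested genes, none changed direction under any of 14 alternatives. The calls of pch-2 and zhp-4 held in all 14, those of chk-2 and sun-1 in 10 and that of plk-2 in 9. The count of the 5 genes rising was 4, and 1 at an adjusted p below 0.01, and it ranged from 1 to 4 when single libraries were left out (2 with replicate 2 of spr-5; met-2 left out, and 1 with its replicate 3, N2 replicate 2 or N2 replicate 3 left out). The count falling was 1 throughout. Over all records 3773 changed, 2075 rising and 1698 falling, and leaving out single libraries gave 2210 to 3849 changed and 800 to 1803 falling. At an adjusted p below 0.01, 1879 changed, 1214 rising and 665 falling. Scaling by library size only left 827 falling and put 77.7% of calls on the rising side, against 55.0%. With the replicate block 5129 records changed, and chk-2 had an adjusted p of 0.00419, plk-2 0.0306, sun-1 0.0155, pch-2 0.00208 and zhp-4 0.00210, so the pairing changed no call among the 5 genes. The cause of these shifts was not tested. A library held 20 to 118 counts for chk-2 and 27 to 128 for zhp-4.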
